A study of Mus musculus with 12 samples.

Results

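The regulators of G-protein signalling described here are Rgs4 and 9 other RGS genes, Rgs2, Rgs3, Rgs10, Rgs12, Rgs14, Rgs16, Rgs17, Rgs19 and Rgs20, which were taken by gene name from a table of 16385 genes. Rgs4 was chosen on its difference between Pax7 isoforms in these data, and the other 9 were listed to see whether relatives of Rgs4 changed with it. The table holds a row for 9 of the 10 genes, and Rgs17 was not analysed here. Of these 9, 7 passed a filter of at least 1 FPKM (fragments per length of transcript and per size of library) in at least 2 libraries and were tested, while Rgs16 and Rgs20 did not pass.

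The 12 libraries were from AtT-20 cells, a line derived from a mouse pituitary tumor that stands in for corticotropes, with 2 libraries in each of 6 groups. The cells expressed 1 of 3 splice isoforms of Pax7, named Q–GL–, Q–GL+ and Q+GL+ after 2 small insertions in the DNA-binding paired domain, a single glutamine (Q) and the residues glycine and leucine (GL), or Pax3, or the C-terminal deletion mutant Pax7-465, which ends at residue 465, or a Pax7 labelled NoTag whose label gives no isoform. All groups thus carry an introduced Pax factor, and control cells were not analysed here. According to the methods, constructs were introduced in the retroviral vector pLNCX2 under the CMV promoter with a 3xFlag epitope at both ends, cells were selected with Geneticin, and each population was a pool of many resistant colonies, so a group is a mixture rather than 1 clone. The NoTag label goes against the epitope for that group. The methods describe RNA taken from cultured cells for each biological replicate but do not say whether the replicates were infected or grown separately, and the p-values cover the spread between these libraries only.

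The Pax7 transcript was at 93.9 to 113 FPKM in the Q–GL–, Q–GL+, Q+GL+ and Pax7-465 libraries, at 157 and 159 FPKM in the NoTag libraries and at 0.159 and 0.161 FPKM in the Pax3 libraries. Among corticotrope markers, Pomc was at 5112 to 10680 FPKM, Tbx19 at 116 to 143 FPKM, Pcsk1 at 225 to 391 FPKM and Neurod1 at 11.5 to 14.8 FPKM in the 12 libraries, whereas Crhr1, which encodes a receptor for corticotrophin-releasing hormone, reached only 0.484 FPKM. Of the markers of other pituitary cells with a row, Lhb was listed at 0 in all 12 libraries, Ghrhr was listed at 0 in the 10 libraries other than NoTag and Nr5a1 reached 0.146 FPKM. The NoTag libraries stand apart, with a summed FPKM of 627305 and 666609 against 413794 to 483161 in the other 10, and with 733 genes that both of them and no other library list above 0. The table gives no read counts, so the depth is unknown and no counting interval is given.

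RGS proteins speed the hydrolysis of GTP by G-protein alpha subunits and so shorten the signal that a receptor sends after it binds its ligand. The R4 proteins, which include Rgs2, Rgs3, Rgs4 and Rgs16, are mostly little more than the catalytic RGS domain with a short flank, apart from long forms of Rgs3, and act on alpha subunits of the Gi and Gq classes. Rgs10, Rgs12 and Rgs14 form a family that acts mainly on Gi alpha subunits, in which Rgs12 and Rgs14 also carry a GoLoco motif that binds inactive alpha subunits, and Rgs17, Rgs19 and Rgs20 are the RZ family, which acts on Gi and Gz alpha subunits. In pituitary corticotropes, hormone release is controlled through G-protein-coupled receptors for corticotrophin-releasing hormone, vasopressin and somatostatin.

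Rgs4 was highest in Q–GL– and NoTag cells, intermediate in Pax7-465 cells and low in the other 3 groups. Its level was 19.9 and 20.5 FPKM in the 2 Q–GL– libraries, 1.81 and 1.71 FPKM in Q–GL+, 2.15 and 2.03 FPKM in Q+GL+, 1.69 and 2.15 FPKM in Pax3, 5.68 and 5.37 FPKM in Pax7-465 and 19.0 and 17.3 FPKM in NoTag libraries. Both Q–GL– libraries were above every other library, both NoTag libraries were next, and both Pax7-465 libraries stood between these and the rest without overlap. The ranges of Q+GL+ and Pax3 cells overlapped, as did those of Pax3 and Q–GL+ cells, so the differences between these neighbours in order are not larger than the spread between libraries. Both Q+GL+ libraries were above both Q–GL+ libraries. The Rgs4 mean in Q–GL– cells, 20.2 ± 0.439 FPKM (SD, n = 2), was 11.5 times that in Q–GL+ cells, 9.67 times that in Q+GL+ cells, 10.5 times that in Pax3 cells and 3.66 times that in Pax7-465 cells. It was 1.11 times the NoTag mean of 18.1 ± 1.24 FPKM. Because Rgs4 was chosen for this pattern, these values are a description and were given no test. In such bulk samples, more cells that express Rgs4 and more Rgs4 RNA per cell cannot be told apart. The summed FPKM of melanotrope markers was also highest in the 3 groups highest in Rgs4. Of 4 listed, Pcsk2 and Oacyl had a row beside the introduced Pax7, and their summed FPKM was 46.9 to 47.2 in Q–GL– libraries, 27.9 to 29.6 in Pax7-465, 18.9 to 20.96 in Pax3, 19.6 to 20.6 in Q–GL+, 14.3 to 14.8 in Q+GL+ and 71.6 to 72.5 in NoTag libraries. Pcsk2 was at 11.7 to 65.6 FPKM and Oacyl at 1.69 to 11.1 FPKM over the 12 libraries, so Pcsk2 made up most of the sum. The part of these markers in the Rgs4 levels was not tested.

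**Figure D1:**
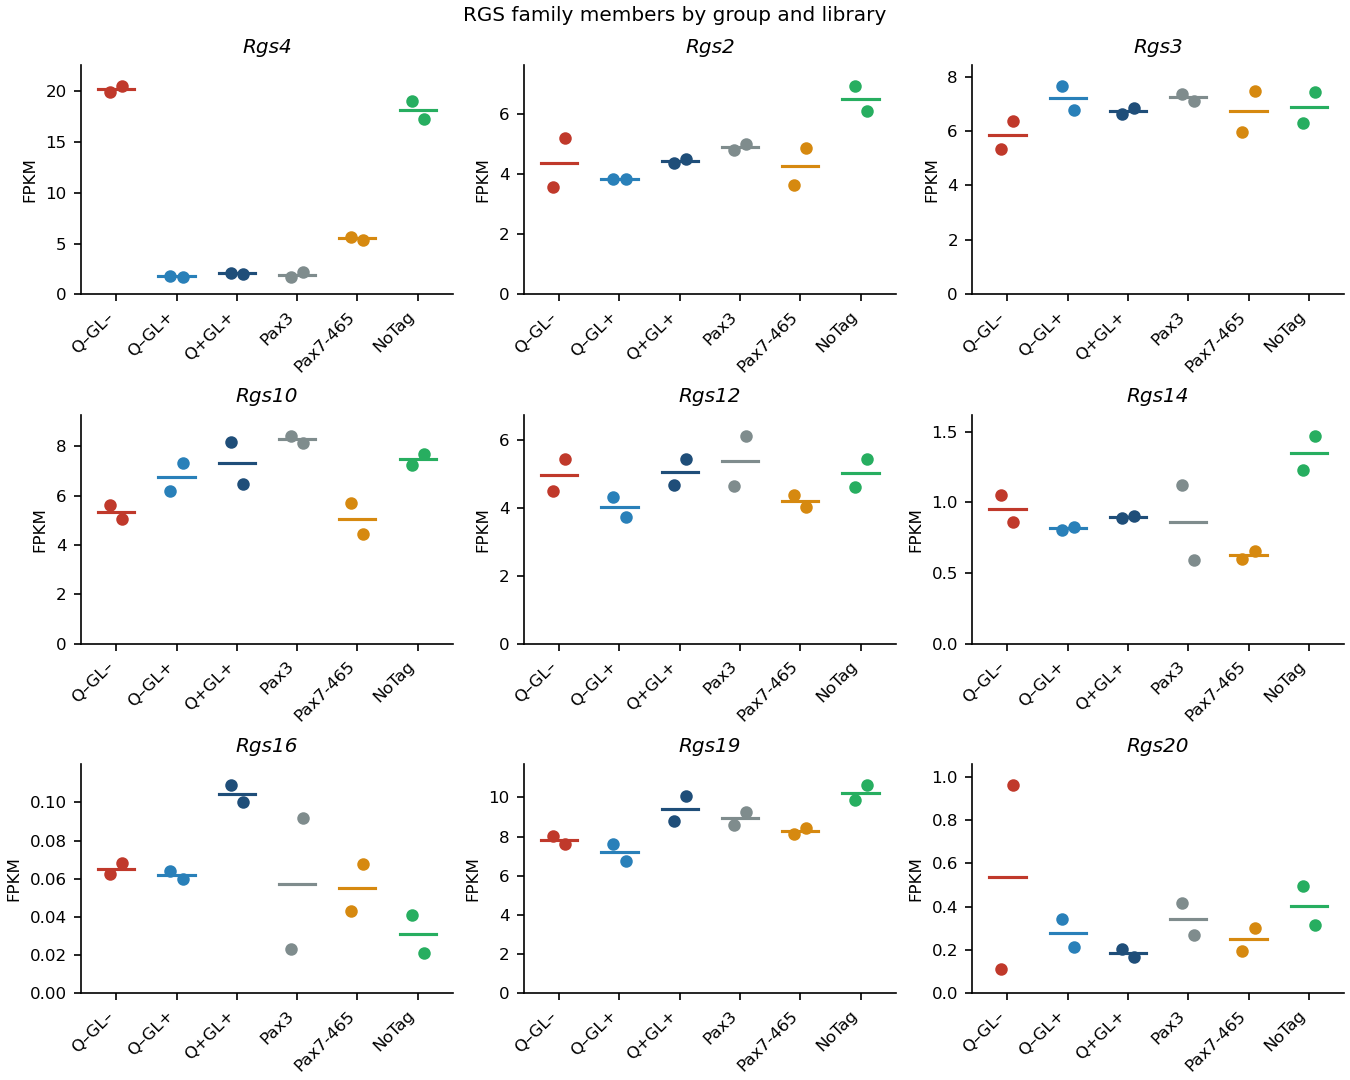
Expression of the 9 measured RGS genes in FPKM on the vertical axis, with a scale of its own for each gene that starts at 0. Each point is 1 library and each bar the mean of the 2 libraries of a group; Rgs4 lies near 20 FPKM in Q–GL– cells and near 2 FPKM in Q–GL+, Q+GL+ and Pax3 cells, while the highest group mean of Rgs10, the most variable of the 6 other tested genes, is 1.63 times its lowest among the 5 groups other than NoTag.

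On the scale of log2(FPKM + 1), Rgs4 was 2.94 higher in Q–GL– cells than in Q–GL+ cells, 2.78 higher than in Q+GL+ cells and 2.87 higher than in Pax3 cells, comparisons that all use the Q–GL– libraries. Between Q+GL+ and Q–GL+ cells it differed by 0.16, and between Pax7-465 and Q+GL+ cells by 1.08. Of the 12578 genes tested, Rgs4 had the third highest difference of Q–GL– over Q–GL+ cells, and among the 7 tested RGS genes it had the largest. Counted by size alone it ranked 10 in that comparison, 11 in Q–GL– against Q+GL+ and 8 in Q–GL– against Pax3 cells. Rgs4 was chosen for its isoform difference, so high ranks follow from that choice and are a description only.

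The differences of Pax7-465 from Pax3 cells and of NoTag from Pax7-465 cells use none of the isoform libraries on which Rgs4 was chosen. Rgs4 was tested there with limma in 1 fit of all 12 libraries, with Benjamini-Hochberg adjustment over 12578 genes. Earlier results of these libraries were known when Rgs4 was picked, and the fit also takes its spread from the isoform libraries. The p-values are thus no independent support. Rgs4 was higher in Pax7-465 than in Pax3 cells by 1.16 on the log2 scale (standard error 0.10, adjusted p = 9.8e-05 from limma), 2.88 times by the means of 5.52 ± 0.218 and 1.92 ± 0.328 FPKM. The call was kept in 6 of 6 other settings and with each of the 12 libraries left out in turn, at 1.05 to 1.28 in the latter. Rgs4 was also higher in NoTag than in Pax7-465 cells, by 1.55 (standard error 0.10, adjusted p = 2.6e-07 from limma), 3.28 times by the means. In that comparison 45.8% of all genes passed, and the median of all genes was also higher in NoTag cells, by 0.19. After quantile normalization, which moved this median to -0.03, the difference of Rgs4 was 1.34, the lowest over 5 other settings. The 2 comparisons share the Pax7-465 libraries, and in Pax7-465 against Pax3 cells 1.16% of all genes passed.

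Rgs4 lies on the minus strand of chromosome 1 at chr1:169741477-169747642 of GRCm38 (mm10), and GENCODE M21 gives it as a protein-coding gene with 3 transcripts, of 5, 4 and 4 exons. The closest gene in the table was Rgs5, an R4 relative on the opposite strand 45664 bases away, which was at 0.264 and 0.175 FPKM in Q–GL– and 0.0828 and 0.0440 FPKM in Q–GL+ libraries. Rgs5 stayed under 1 FPKM in every library and was not tested. Of the other 7 genes within 500 kb, the 6 tested ones (Nuf2, Hsd17b7, 3110045C21Rik, Ddr2, Uap1 and Uhmk1) had Q–GL– minus Q–GL+ differences of -0.05 to 0.23 on the log2 scale. None of these 6 passed the limma test there, and 1 of them, Ddr2, a collagen receptor kinase, had an unadjusted p under 0.05 (difference 0.19, adjusted p = 0.26). Of all 12578 genes tested, 4.17% passed in that comparison and 2349 had an unadjusted p under 0.05.

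**Figure D2:**
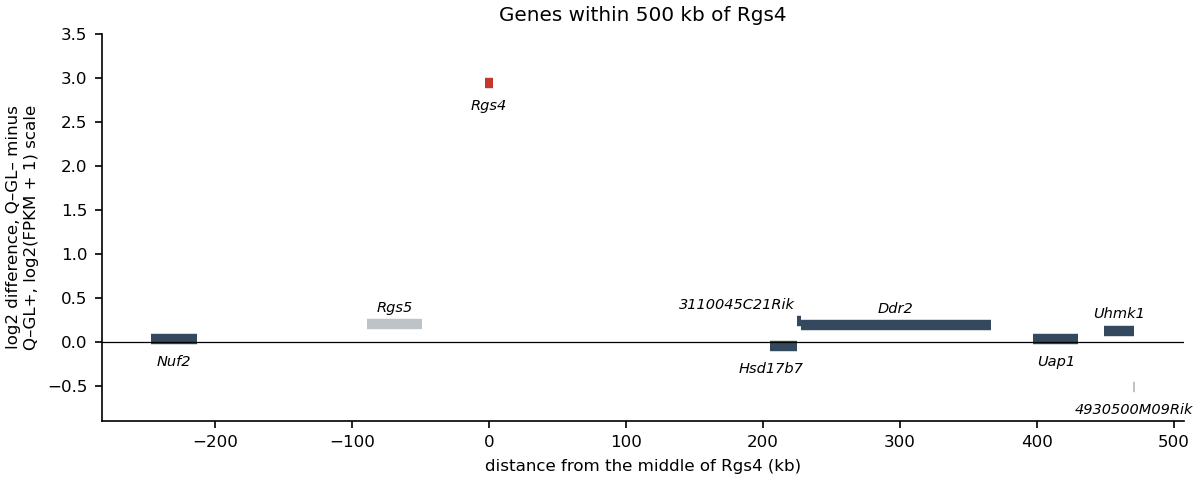
Values in Q–GL– minus those in Q–GL+ cells (vertical axis, log2(FPKM + 1) scale) for the genes within 500 kb of Rgs4, drawn as bars over their annotated span against the distance from the middle of Rgs4 in kb (horizontal axis). Rgs4 (red) lies at 2.94 and the 6 tested neighbours (dark) between -0.05 and 0.23; grey marks genes that were not tested.

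Over the 10 libraries other than NoTag, the pattern of Rgs4 was compared by Pearson correlation on the log2 scale with 163 genes whose 5 group means spanned at least 1. The most similar were Serpina1f, a serpin gene (r = 0.983), Apobec2, a cytidine deaminase relative known from muscle (r = 0.980), Galns, a lysosomal sulfatase (r = 0.976), Rspo4, a secreted activator of Wnt signalling (r = 0.973), and Klk14, a kallikrein-related peptidase (r = 0.971). Apobec2 was at 10.7 and 10.6 FPKM in Q–GL– libraries, 1.90 and 2.09 FPKM in Q–GL+, 2.03 and 2.98 FPKM in Q+GL+, 2.05 and 1.80 FPKM in Pax3 and 3.60 and 4.21 FPKM in Pax7-465 libraries. Klk14 was at 9.37 and 9.94 FPKM in Q–GL– libraries, 0.759 and 1.25 FPKM in Q–GL+, 0.601 and 0.905 FPKM in Q+GL+, 0.272 and 0.360 FPKM in Pax3 and 3.51 and 2.27 FPKM in Pax7-465 libraries. As with Rgs4, both libraries of Q–GL– cells were highest among the 10 and both Pax7-465 libraries came next in these genes. In the NoTag libraries, which the correlation did not use, Apobec2 was at 14.0 and 13.8 FPKM and Klk14 at 11.6 and 11.7 FPKM, above both Q–GL– libraries, whereas Rgs4 was below them. Galns changed over a smaller range, from 5.93 FPKM in a Pax3 library to 17.6 FPKM in a Q–GL– library. Its NoTag libraries, at 13.9 and 14.2 FPKM, were below both Q–GL– libraries, as with Rgs4. Those of Serpina1f and Rspo4 were above both Q–GL– libraries, as with Apobec2 and Klk14. Serpina1f was low, at 1.17 and 1.03 FPKM in Q–GL– libraries and listed at 0 in 1 Q–GL+ library. It passed the filter of 1 FPKM only through the Q–GL– and NoTag libraries. Rspo4 passed it only through those and the Pax7-465 libraries, and Klk14 through the same libraries and 1 Q–GL+ library. The place of these genes among those compared thus depended on the groups high in Rgs4.

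**Figure D3:**
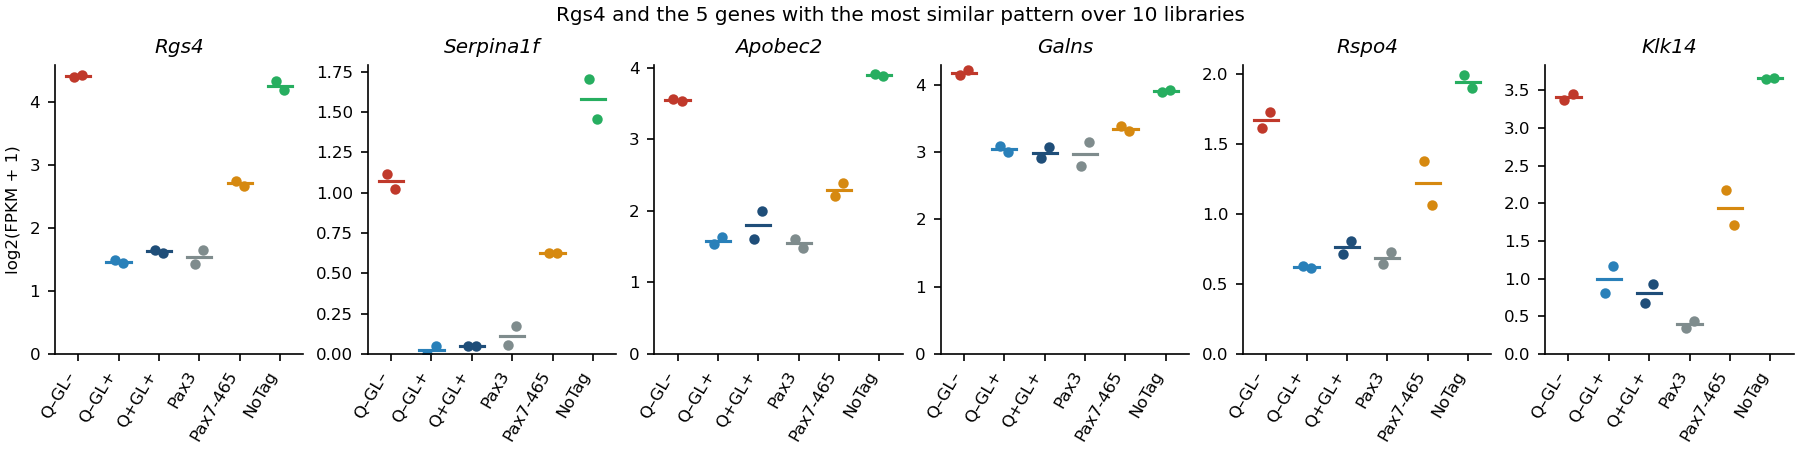
Rgs4 and the 5 genes with the most similar pattern over the 10 libraries other than NoTag, as log2(FPKM + 1) on a vertical axis that starts at 0 and differs in range between genes. Each point is 1 library and each bar the group mean; in all 6 genes the Q–GL– libraries are highest among these 10 and the Pax7-465 libraries second.

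The least similar patterns were those of Atp6v1c2, which encodes a subunit of the vesicular proton pump (r = -0.869), Gm37494 (r = -0.841) and Spink4, a Kazal-type protease inhibitor gene (r = -0.686). Atp6v1c2 was at 2.96 and 3.72 FPKM in Q–GL– libraries and at 4.65 to 8.93 FPKM in the other 8. In the NoTag libraries, where Rgs4 was also high, Atp6v1c2 was at 11.5 and 10.5 FPKM. Over all 12 libraries, r was -0.15 for Atp6v1c2, -0.707 for Gm37494 and -0.264 for Spink4, so the contrast with Rgs4 depended on leaving NoTag out. The correlations that picked these genes describe 10 libraries in 5 groups, and genes were selected for them, so no p is given.

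Of the 6 tested members other than Rgs4, only Rgs10 passed the test outside the NoTag comparison. It passed against Pax3 cells in Q–GL– cells, where 4.33% of all genes passed, and in Pax7-465 cells, where 1.16% did. Both calls were lost in some fits with a library left out. Serpina1f and Apobec2 had the patterns most similar to Rgs4 over the 10 libraries other than NoTag. For Serpina1f the limit of the filter given above applies. The sequences before the start of these genes are set side by side here. They were read from RefSeq on GRCm38.p6 and are the 250 bases before the RefSeq start, 5′ to 3′ on the gene's strand. For Rgs10 this start is not that of GENCODE M21. There the gene spans chr7:128373621-128418758, so its window lies inside that span. Capitals mark TAAT, the core of homeodomain sites, GTCAC, a core of paired-domain sites, and TATAAA, the TATA box, on either strand (ATTA and GTGAC on the other strand). TATAAA was added to the search after the Rgs4 sequence was seen.
Rgs4, chr1:169747643-169747892, minus strand: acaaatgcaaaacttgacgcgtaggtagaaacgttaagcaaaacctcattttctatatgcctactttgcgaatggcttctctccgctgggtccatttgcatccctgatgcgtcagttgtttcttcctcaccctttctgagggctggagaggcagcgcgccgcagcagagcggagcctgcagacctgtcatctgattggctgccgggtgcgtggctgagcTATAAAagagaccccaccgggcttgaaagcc
Rgs10, chr7:128418173-128418422, minus strand: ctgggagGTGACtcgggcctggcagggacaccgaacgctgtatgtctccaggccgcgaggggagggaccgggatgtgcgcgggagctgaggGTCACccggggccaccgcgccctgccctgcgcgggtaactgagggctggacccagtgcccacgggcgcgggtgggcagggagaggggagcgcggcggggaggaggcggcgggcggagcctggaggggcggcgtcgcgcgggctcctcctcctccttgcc
Serpina1f, chr12:103695530-103695779, minus strand: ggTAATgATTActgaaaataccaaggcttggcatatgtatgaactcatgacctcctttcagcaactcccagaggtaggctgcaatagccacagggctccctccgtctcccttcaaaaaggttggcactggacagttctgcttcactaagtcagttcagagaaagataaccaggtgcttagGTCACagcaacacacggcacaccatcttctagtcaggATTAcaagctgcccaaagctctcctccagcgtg
Apobec2, chr17:48432729-48432978, minus strand: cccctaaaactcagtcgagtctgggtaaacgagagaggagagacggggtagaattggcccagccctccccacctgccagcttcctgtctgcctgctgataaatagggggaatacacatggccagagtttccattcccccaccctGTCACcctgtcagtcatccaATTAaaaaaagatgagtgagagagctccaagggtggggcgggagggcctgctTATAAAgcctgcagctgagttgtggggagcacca
The Rgs4 window held a TATAAA that begins at position -31 from the start, and held neither TAAT nor GTCAC. Apobec2 had a TATAAA at -34, a TAAT at -86 and a GTCAC at -106, Serpina1f had 3 TAAT and 1 GTCAC, and Rgs10 had 2 GTCAC and no TAAT in a window with 76.4% GC against 53.6% in Rgs4 and a median of 52.4% over all promoters. Of 32851 promoters of the same length in the table, 54.9% held TAAT, 39.8% GTCAC and 12.4% TATAAA. The palindromes TAATNNATTA and TAATNNNATTA, each of which contains TAAT on both strands, were in 0.384% and 0.463% of promoters and in none of the windows of the 8 RGS members with an entry or of the 4 similar genes with one, and a match is a description of letters and not a binding site.

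Between isoforms, no other tested RGS member passed the test. In the comparison of Q–GL– with Q–GL+ cells, 0 of the 6 other tested members passed the limma test, where 4.17% of all genes did, and 2 of them, Rgs3 and Rgs10, had an unadjusted p under 0.05, both with lower values in Q–GL– cells. Their log2 differences ran from -0.29 to 0.24 with a median of 0.11, against a median of 0.04 over all genes tested. In Q+GL+ against Q–GL+ cells, 0 of 6 passed, where 0.962% of all genes did, and 1 had an unadjusted p under 0.05, namely Rgs19 at 0.35 (adjusted p = 0.11 from limma). In Q–GL– against Q+GL+ cells, 0 of 6 passed, where 2.15% of all genes did, and 2, Rgs10 and Rgs19, had an unadjusted p under 0.05. An unadjusted limma p under 0.05 was reached by 2349, 1667 and 1800 of the 12578 genes tested in these 3 comparisons, in the order given. The comparisons share libraries in pairs.

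**Figure D4:**
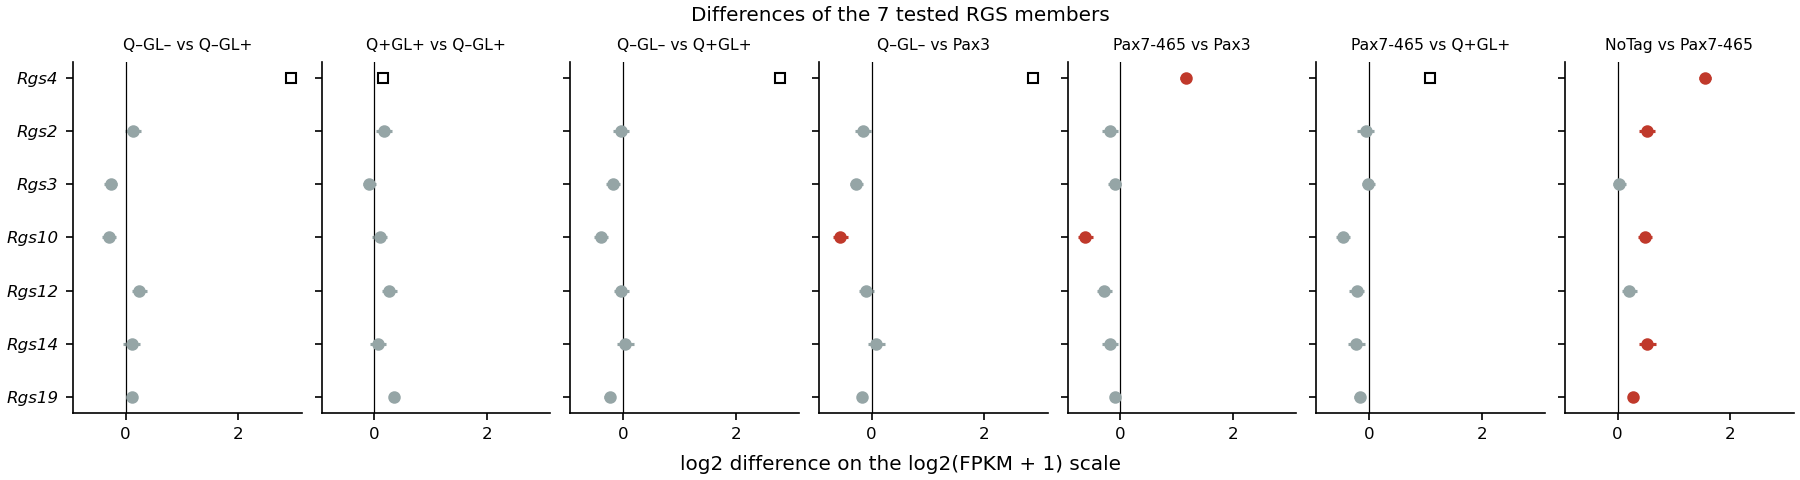
Differences of the 7 tested RGS genes in the 7 comparisons on the log2(FPKM + 1) scale (horizontal axis), with bars of 1 standard error from limma. Red points passed an adjusted p under 0.05 and grey points did not, and open squares are Rgs4 where it was chosen on the libraries compared and not tested; outside the NoTag comparison, red is seen only for Rgs4 and Rgs10.

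Among the R4 relatives of Rgs4, Rgs2, which acts preferentially on Gq alpha subunits, was at 3.56 and 5.19 FPKM in Q–GL– and 3.83 and 3.84 FPKM in Q–GL+ libraries, and the libraries of the groups overlapped. It was at 4.37 and 4.52 FPKM in Q+GL+, 4.82 and 5.002 FPKM in Pax3 and 3.66 and 4.86 FPKM in Pax7-465 libraries. Over the 10 libraries other than NoTag its highest group mean was 1.28 times its lowest. Rgs3, which acts on Gi and Gq alpha subunits, was at 5.32 and 6.38 FPKM in Q–GL– libraries, under the 7.65 and 6.79 FPKM of Q–GL+ libraries, and the log2 difference of -0.27 (standard error 0.12) did not pass the limma test (adjusted p = 0.26). Rgs3 kept within 5.98 and 7.46 FPKM in the Q+GL+, Pax3 and Pax7-465 libraries, and each group overlapped its neighbour in the order of means. Rgs16 was at 0.0213 to 0.109 FPKM in all 12 libraries, far under the filter in every group.

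Rgs10, a small protein that acts on Gi alpha subunits, was the member that differed most from the others apart from Rgs4. It was at 5.63 and 5.04 FPKM in Q–GL–, 6.21 and 7.33 FPKM in Q–GL+, 8.19 and 6.46 FPKM in Q+GL+, 8.44 and 8.13 FPKM in Pax3, 5.72 and 4.43 FPKM in Pax7-465 and 7.24 and 7.71 FPKM in NoTag libraries. Among the 10 libraries other than NoTag, the 4 with Rgs4 above 5 FPKM, those of Q–GL– and Pax7-465 cells, were the 4 lowest for Rgs10, and the Pax3 libraries were the highest and the third highest. The NoTag libraries, also high in Rgs4, were above these 4 for Rgs10 and so did not follow that order. In Q–GL– against Pax3 cells, 1 of the 6 members passed, where 4.33% of all genes did, and this was Rgs10, lower in Q–GL– cells by a log2 difference of -0.55 (standard error 0.13, adjusted p = 0.033 from limma). The call was lost without Pax3 replicate 1 (-0.53, adjusted p = 0.16), without Pax3 replicate 2 (-0.58, adjusted p = 0.065), and when replicate 1 (-0.62, adjusted p = 0.094) or replicate 2 (-0.49, adjusted p = 0.21) of the Q–GL– cells was left out. In Pax7-465 against Pax3 cells, 1 of the 6 members passed, where 1.16% of all genes did, again Rgs10, at -0.62 (standard error 0.13, adjusted p = 0.041 from limma). That call was kept in 3 of 6 other settings and in 3 of the 12 fits with a library left out, namely those without Pax7-465 replicate 1 or either Q+GL+ replicate. In the remaining 9 the difference ran from -0.64 to -0.47 and the adjusted p reached 0.24. Both comparisons use the Pax3 libraries. In Pax7-465 against Q+GL+ cells, where 1.33% of all genes passed, 0 of 6 members passed the limma test. There 1 member, Rgs10 at -0.46, had an unadjusted p under 0.05 (adjusted p = 0.13), where 1653 of the 12578 genes tested did.

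The GoLoco proteins among the members, Rgs12 and Rgs14, showed no difference past the test among the 10 libraries other than NoTag. Rgs12, a large scaffold with PDZ and Ras-binding domains, was at 4.48 and 5.42 FPKM in Q–GL–, 4.31 and 3.72 FPKM in Q–GL+, 4.68 and 5.42 FPKM in Q+GL+, 4.62 and 6.12 FPKM in Pax3 and 4.36 and 4.03 FPKM in Pax7-465 libraries. Both Q–GL– libraries were above both Q–GL+ libraries, and the log2 difference of 0.24 (standard error 0.14) did not pass (adjusted p = 0.37 from limma). Rgs14, a scaffold with Ras-binding domains, was near the filter, at 0.591 to 1.13 FPKM in these 10 libraries, and passed the filter through 1 Q–GL– library, 1 Pax3 library and both NoTag libraries.

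Of the RZ family, Rgs19, which binds Gi alpha subunits, was the member with the highest median over the 10 libraries, at 8.29 FPKM. It was at 8.03 and 7.64 FPKM in Q–GL–, 7.63 and 6.77 FPKM in Q–GL+, 8.78 and 10.1 FPKM in Q+GL+, 8.62 and 9.24 FPKM in Pax3 and 8.12 and 8.46 FPKM in Pax7-465 libraries. The Q–GL+ libraries were lowest, and the highest group mean of these 5 groups was 1.31 times the lowest. Rgs20, a regulator of Gz, was at 0.112 and 0.961 FPKM in the 2 Q–GL– libraries and between 0.169 and 0.495 FPKM in the other 10, so 1 library alone set its Q–GL– mean.

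In the comparison of NoTag with Pax7-465 cells, 45.8% of all genes passed. Of the 6 members other than Rgs4, 4 were higher in NoTag than in Pax7-465 cells and 0 were lower in the limma test, with a median log2 difference of 0.38 over the 6 against 0.19 over all genes. Rgs2 was at 6.93 and 6.10 FPKM in NoTag libraries and was higher by 0.52 (adjusted p = 0.011), Rgs14 at 1.23 and 1.47 FPKM by 0.53 (adjusted p = 0.011), Rgs10 by 0.49 (adjusted p = 0.0087) and Rgs19, at 9.86 and 10.6 FPKM, by 0.28 (adjusted p = 0.030). Rgs3, at 6.30 and 7.43 FPKM, and Rgs12, at 4.60 and 5.42 FPKM in NoTag libraries, did not pass. After quantile normalization 0 of the 4 calls remained by limma, with the differences then at 0.32 for Rgs2, 0.28 for Rgs10, 0.40 for Rgs14 and 0.09 for Rgs19. Leaving out 1 library, the 4 calls became 1 (Pax7-465 replicate 1), 2 (Pax7-465 replicate 2), 2 (NoTag replicate 1) and 1 (NoTag replicate 2). The summed FPKM of the NoTag libraries moved with these values, and its part in them was not tested.

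The remaining RGS genes in the table belong mostly to the R7 family, whose proteins pair with the beta subunit Gnb5 and act on Gi alpha subunits. Of 13 listed genes outside the 10 members, 7 had a row and 4 were tested. Rgs9 had the highest FPKM of the RGS genes in the 10 libraries other than those of Q–GL– cells, where Rgs4 was above it. It was at 18.6 and 18.1 FPKM in Q–GL–, 24.2 and 23.0 FPKM in Q–GL+, 18.5 and 18.4 FPKM in Q+GL+, 20.1 and 20.9 FPKM in Pax3, 18.9 and 18.3 FPKM in Pax7-465 and 22.4 and 22.8 FPKM in NoTag libraries. Both Q–GL+ libraries were above every other library, a pattern unlike that of Rgs4. Relative to Q–GL+ cells, Rgs9 was lower in Q–GL– cells by a log2 difference of -0.34 (standard error 0.07, adjusted p = 0.015 from limma), a call kept in 6 of 6 other settings and lost without any 1 of the 4 libraries compared, where the difference was -0.38 to -0.31 and the adjusted p up to 0.12. The difference of Q+GL+ from Q–GL+ cells was also -0.34 (adjusted p = 0.043), kept in 3 of 6 other settings and 2 of 12 fits with a library left out, namely those without either Pax3 replicate. The adjusted p reached 0.26 in the others, and both comparisons use the Q–GL+ libraries.

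Rgs7 was at 8.02 and 6.32 FPKM in Q–GL– libraries and at 4.74 and 4.72 FPKM in Q+GL+ libraries, without overlap, and the log2 difference of 0.50 (adjusted p = 0.051 from limma) did not pass. Rgs11 was at 4.03 and 4.66 FPKM in Q–GL– and 3.21 and 2.87 FPKM in Q–GL+ libraries, and its log2 difference of 0.40 (adjusted p = 0.084) did not pass either. In NoTag against Pax7-465 cells, where 45.8% of all genes passed, Rgs7 and Rgs9 were higher, by 0.34 and 0.27. Rgs11 and Rgs7bp, which encodes a membrane anchor of R7 proteins, were lower, by -0.67 and -0.39. The call of Rgs11 was kept in 5 of 5 other settings and with each of the 12 libraries left out. That of Rgs7bp was kept in 5 of 5 settings and lost without any 1 of the 4 libraries compared, where the adjusted p was up to 0.12. Those of Rgs7 and Rgs9 were lost after quantile normalization, at 0.14 and 0.04. With a library left out, the Rgs9 call was kept in 12 of 12 fits, and the Rgs7 call was lost without Pax7-465 replicate 2 or either NoTag replicate, where its difference was as low as 0.21 and the adjusted p up to 0.23. Rgs5, Rgs8 and Rgs9bp, an anchor of Rgs9, stayed under 1 FPKM.

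Further along the pathway, 56 of 79 listed genes for other RGS-domain proteins, G-protein subunits, their chaperones, arrestins, effectors and corticotrope receptors were tested. In Q–GL– against Q–GL+ cells 5 of the 56 were higher and 0 lower, where 4.17% of all genes passed (385 higher and 139 lower), with a median log2 difference of 0.08 against 0.04 over all genes. Of 13 beta and gamma subunit genes, Gng4, a gamma subunit, was higher by 0.62 (standard error 0.08, adjusted p = 0.0013 from limma), and Gnb3, a beta subunit, by 0.53 (adjusted p = 0.0080). Kcnj3, which encodes the channel subunit GIRK1 that beta-gamma dimers open, was higher by 0.53, Gna14, an alpha subunit of the Gq class, by 0.43, and Gpsm2, a GoLoco protein of spindle orientation, by 0.39. The count of 5 fell to 2 when replicate 1 of the Q–GL+ cells was left out and to 1 when replicate 2 was, and to 3 when either Q–GL– replicate was.

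**Figure D5:**
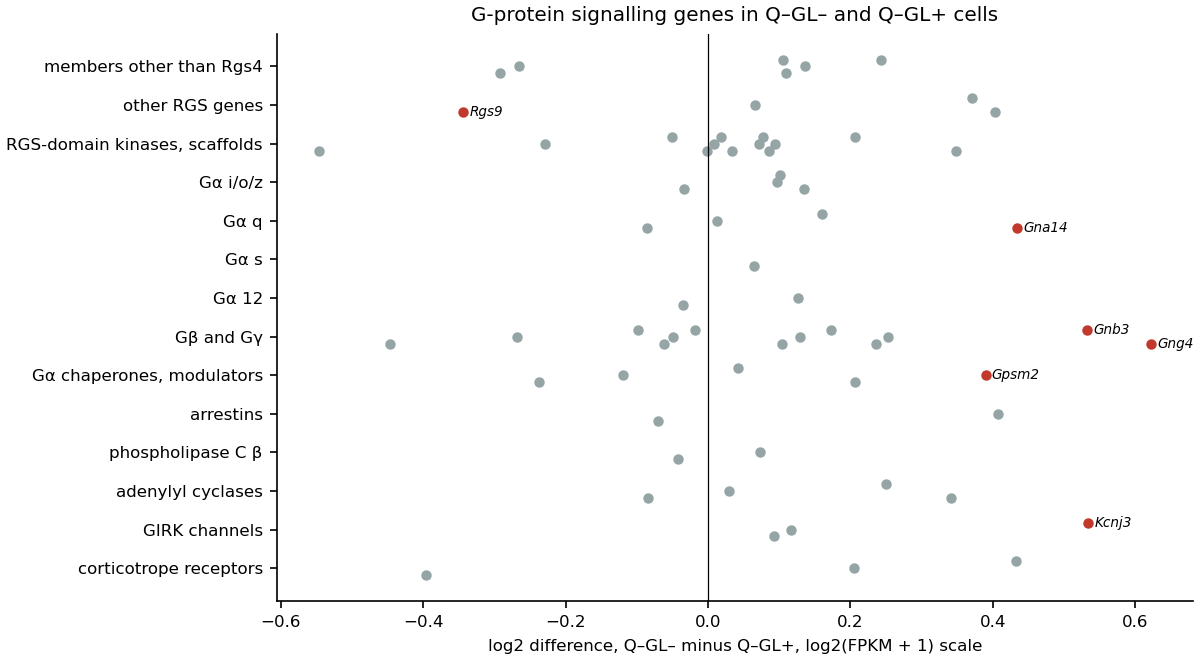
Log2 difference between Q–GL– and Q–GL+ cells (horizontal axis, log2(FPKM + 1) scale) for tested genes of G-protein signalling, 1 point a gene, by list (vertical axis, with a small offset within a list for visibility). Red points, with names, passed an adjusted p under 0.05 and grey points did not; Rgs9 is the gene past the test on the lower side and Gng4 at 0.62 is highest.

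Gng4 was at 22.9 and 24.5 FPKM in Q–GL–, 15.0 and 15.1 FPKM in Q–GL+, 16.3 and 17.8 FPKM in Q+GL+, 13.4 and 15.3 FPKM in Pax3, 22.1 and 20.8 FPKM in Pax7-465 and 17.2 and 16.5 FPKM in NoTag libraries. As for Rgs4, Q–GL– and Pax7-465 libraries were the highest of the 10 libraries other than NoTag, but the NoTag libraries were not among the highest for Gng4. Gng4 passed the limma test with higher values also in Q–GL– cells against Q+GL+ cells (0.45, adjusted p = 0.015) and against Pax3 cells (0.69, adjusted p = 6.2e-04) and in Pax7-465 against Pax3 cells (0.55, adjusted p = 0.0068), of which the first 2 share the Q–GL– and the last 2 the Pax3 libraries. It was lower in NoTag than in Pax7-465 cells, at -0.33.

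Gna14 and Kcnj3 were lowest in Q–GL+ cells. Gna14 was at 5.50 and 5.02 FPKM in Q–GL+, 7.55 and 7.35 FPKM in Q–GL– and 7.11 and 7.77 FPKM in Q+GL+ libraries. Kcnj3 was at 17.3 and 15.6 FPKM in Q–GL+, 24.9 and 23.6 FPKM in Q–GL– and 22.3 and 24.7 FPKM in Q+GL+ libraries. They were the 2 of 56 genes that passed between Q+GL+ and Q–GL+ cells, where 0.962% of all genes did (57 higher and 64 lower), at 0.43 (adjusted p = 0.044 from limma) and 0.49 (adjusted p = 0.021), and 0 of 56 were lower. That count was 5 after quantile normalization and 0 without any 1 of the Q+GL+ or Q–GL+ replicates.

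In Q–GL– against Q+GL+ cells, where 2.15% of all genes passed, the listed genes past the test were Gng4 and Axin2, an RGS-domain scaffold of Wnt signalling at 0.51 (adjusted p = 0.039 from limma), a count of 2 that became 0 without Q+GL+ replicate 1 or either Q–GL– replicate and 1 without the NoTag libraries. In Q–GL– against Pax3 cells, where 4.33% of all genes passed, they were Gng4, Gnb3 at 0.41 and Ric8b, a chaperone of alpha subunits, at 0.28, a count of 3 that became 1 without either Q–GL– replicate or without the NoTag libraries. In Pax7-465 against Pax3 cells, where 1.16% of all genes passed, it was Gng4, a count of 1 that became 0 without Pax3 replicate 1 or Pax7-465 replicate 1. In Pax7-465 against Q+GL+ cells, where 1.33% of all genes passed, 0 of 56 passed by limma. At an unadjusted p under 0.05 there were 3 higher and 8 lower, where 1653 of the 12578 genes tested were under it. None of the 4 tested Gi-class alpha subunit genes, the main targets of Rgs4 together with the Gq class, passed in any of these 6 comparisons by limma. In Q–GL– against Pax3 cells 1 of them had an unadjusted p under 0.05, where 2294 of the 12578 genes tested did.

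Between NoTag and Pax7-465 cells 25 of the 56 genes were higher and 6 lower by limma, where 45.8% of all genes passed (4766 higher and 999 lower of 12578). Gna14 was at 19.1 and 19.2 FPKM in NoTag against 6.52 and 7.26 FPKM in Pax7-465 libraries, a log2 difference of 1.36 (standard error 0.09, adjusted p = 2.8e-07), and Kcnj3 and Plcb3, a phospholipase C effector of Gq, were higher by 0.80 and 0.76. Sstr5, a somatostatin receptor gene, had a mean of 5.46 FPKM in NoTag against 11.6 FPKM in Pax7-465 cells, a difference of -0.96. The median over the 56 genes was 0.21 against 0.19 over all genes.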

How the data were processed

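RNA-Seq of 12 AtT-20 libraries, 2 in each of 6 groups taken from the sample labels, was analysed. The authors deposited FPKM from strand-specific paired-end reads, trimmed with Trimmomatic, mapped to Ensembl GRCm38 (mm10) with TopHat2 without further junctions and quantified with HOMER. Tool versions for these steps and the normalization total are not given in the sources used here. No counts are held, so the depth is unknown and a count model was not run. Another 4 per-sample columns belong to samples outside these 12 and stayed out.

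Values were taken as log2(FPKM + 1), where the pseudocount of 1 understates changes of low genes. A minimum of 1 FPKM in 2 or more libraries left 12578 of 16385 genes, which were fitted together with limma (trend and robust options, a coefficient for each of the 6 groups). Genes past the test had a Benjamini-Hochberg adjusted p under 0.05 over all genes tested. The steps were tested on simulated data. Other settings were quantile normalization, a pseudocount of 0.1, no filter, only the 2 groups compared, no NoTag libraries, a replicate block and each library left out in turn. The members, gene lists and tests were chosen with earlier results of these data known. Named genes were the members, called RGS relatives, up to 2 genes per pathway list by smallest adjusted p outside NoTag, and the 5 most and 3 least like Rgs4.

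File starts count from 0 and were printed with 1 added; 16335 gene IDs were in GENCODE M21, and 15203 had equal coordinates. Promoters of RefSeq were matched by symbol for 8 of 10 members. Software was limma 3.58.1 with statmod 1.5.0 under R 4.3.3, and numpy 2.4.6, pandas 2.3.3 and matplotlib 3.10.9 under Python 3.11.15.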

Additional observations from a re-analysis of the deposited data

How the results depend on the processing

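Of the 6 tested members other than Rgs4, 0 were called in Q–GL– against Q–GL+, Q+GL+ against Q–GL+, Q–GL– against Q+GL+ and Pax7-465 against Q+GL+ cells by limma in every setting run, and the lowest and highest counts with a library left out were both 0. For Q–GL– against Pax3 cells the count of 1 became 0 without the filter on low values, and it was 0 to 1 with a library left out. For Pax7-465 against Pax3 cells the count of 1 became 0 after quantile normalization, 0 without the filter and 0 without the NoTag libraries, and it was 0 to 1 with a library left out. For NoTag against Pax7-465 cells the count of 4 became 0 after quantile normalization and 1 to 4 with a library left out. The cause of these changes was not tested. None of the differences recomputed here reversed its direction. The NoTag comparison could not be run without the NoTag libraries. With a library left out, a group of 1 is assumed to vary like the others.

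Between libraries with the same replicate number, the correlations of their deviations from the group means were -0.16 to 0.17, and 2 of 15 were over 0.1. Values this small gave no clear sign of pairing. They do not show that the numbers pair no samples, since the methods do not say how replicates were grown. With a replicate block the counts of members were 0, 0, 0, 1, 1, 0 and 4 in the order of the comparisons, as without it, and the Rgs9 call between Q+GL+ and Q–GL+ cells was lost. Among the 56 other pathway genes, the count over the 6 or 5 other settings was 5 to 7 for Q–GL– against Q–GL+, 1 to 5 for Q+GL+ against Q–GL+, 1 to 3 for Q–GL– against Q+GL+, 1 to 3 for Q–GL– against Pax3, 0 to 1 for Pax7-465 against Q+GL+ and 28 to 32 for NoTag against Pax7-465 cells. For the 4 tested RGS relatives it was 0 to 1 for Q+GL+ against Q–GL+, 0 to 1 for Q–GL– against Q+GL+ and 2 to 4 for NoTag against Pax7-465 cells.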
